A study of Caenorhabditis elegans with 6 samples.

Results

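The 10 genes described here encode core machinery of synaptic release and neuropeptide processing in Caenorhabditis elegans: snb-1, snt-1, unc-64, unc-13, unc-31, rab-3, egl-3, egl-21, sbt-1 and ida-1. They were taken by gene symbol from a table of 20189 protein-coding genes in which ribosome footprints, the stretches of mRNA that ribosomes protect, were counted over coding sequence. All 10 were found and all passed the filter on low counts that left 10632 genes for testing.

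Every library came from whole hermaphrodites at the L4 larval stage that were rpl-36A(P55Q)/mIn1 heterozygotes grown at 23 °C. They carried 1 copy of the gene for the large-subunit ribosomal protein eL42 with the P55Q change, over mIn1, a balancer chromosome. Ribosomes with a change at this proline are known to keep working in cycloheximide (CHX), an inhibitor of the elongation step. In the no CHX group, 3 libraries came from animals kept without the drug for 2 days, and in the CHX group 3 came from animals put on the drug as eggs (500 µg/ml in the plates) and kept there for 3 days. Drug and culture time changed together, so their parts in any difference cannot be told apart. The drug-resistant allele was present in both groups, and no group without it was analysed here. Footprint counts alone do not tell a change in mRNA level from a change in ribosomes per mRNA, and no mRNA counts were analysed. Whether footprints came from changed or unchanged ribosomes, or from moving or halted ones, was not measured.

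Neurons release transmitter when synaptic vesicles fuse with the plasma membrane, a step driven by SNARE proteins on both membranes and timed by calcium. Neuropeptides travel in dense core vesicles, in which their precursors are cut and trimmed on the way to release, and these vesicles use much of the same fusion machinery. In C. elegans most of the 10 genes are known chiefly from neurons, which are a small part of a whole larva by volume. Some also act in other secretory cells: unc-64 is known from non-neuronal secretory cells and ida-1 from the uv1 cells of the vulva.

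Footprints on 3 of the 10 genes rose with CHX and none fell. Those that rose were snb-1 (synaptobrevin) by 1.30-fold, unc-64 (syntaxin) by 1.37-fold and sbt-1 (the 7B2-like chaperone of a peptide-cutting enzyme) by 1.46-fold. Of all tested genes 71.3%, 74.9% and 78.2% had a lower log2 fold change than these 3, in that order. The other 7 of the 10 genes, among them the calcium sensor gene snt-1 and the priming gene unc-13, had no call in either direction. Among all tested genes 42.2% were called, 22.2% as risen and 20.0% as fallen (quasi-likelihood test of edgeR, adjusted p under 0.05 by Benjamini-Hochberg). A count of 3 risers in 10 is thus near the share for any gene. For the absence of falls, edgeR gave 0 members lower at an unadjusted p under 0.05, and DESeq2 and limma-voom gave 0 as well. The 3 calls depended on the tool and the libraries: limma-voom gave 3 risers, DESeq2 gave 0 (2 members higher at an unadjusted p under 0.05), and 1 (sbt-1) was left without no CHX replicate 3. Over all 10632 tested genes limma-voom gave 2334 risers and DESeq2 1654. In the fit without no CHX replicate 3, 19.3% of 10912 tested genes rose.

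Library totals ran from 1601009 to 1901815 reads, and single members had from 10 to 228 reads in a library. Counting error alone was thus 7.50% of the mean for snb-1, the member with most reads, and 28.3% for unc-31, the one with fewest. The mutated gene rpl-36.A fell from 932 ± 66.4 to 658 ± 67.4 CPM (± SD over 3 libraries per group; log2 fold change -0.50, edgeR adjusted p = 5.0e-04). CPM is the read count scaled to a common library size with TMM normalisation. Tissue markers differed between the groups. All 7 oocyte markers rose, their sum going from 161 to 291 CPM without CHX to 3032 to 3495 CPM with it. Of body wall muscle markers 4 of 6 fell (summed level 10965 to 12064 CPM without CHX, 8223 to 9166 CPM with it). All 4 tested of 5 pharyngeal muscle markers rose (380 to 457 CPM against 565 to 744 CPM). Of the tested markers, 3 of 5 for sperm and 2 of 6 for intestine fell, the latter count being 3 with DESeq2 and limma-voom, 4 without no CHX replicate 3 and 1 without the 100 most abundant genes. For the germline 4 of 6 fell and 1 rose, and that rise was lost with DESeq2 and on leaving out replicate 1 or 2 of either group. None of 6 epidermal markers was called (edgeR; 2 higher and 1 lower at an unadjusted p under 0.05, 1 fell with DESeq2, with limma-voom, with no filter and without CHX replicate 1, and 1 rose without no CHX replicate 3). No marker on any list was at 0 in all libraries.

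In the whole-animal extract a change in the share that comes from neurons and a change of these genes within neurons cannot be told apart. Of 8 pan-neuronal markers, 7 were tested, 2 rose (unc-51 and maco-1) and none fell (0 lower at an unadjusted p under 0.05 with edgeR, DESeq2 and limma-voom). Their summed level was 361 to 428 CPM without CHX and 399 to 420 CPM with it, so the groups overlapped. The largest part of that sum was 1 gene, unc-44, at 218 ± 35.4 and 194 ± 5.83 CPM (± SD over 3 libraries per group). It was not called with all 6 libraries (log2 fold change -0.17, edgeR adjusted p = 0.259). Without no CHX replicate 3, 1 marker rose and 1 fell. The part of tissue make-up in the results below was not tested.

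One library mattered for the 10 genes. No CHX replicate 3 had the lowest CPM of its group for 9 of the 10, the exception being sbt-1. Among the 7838 tested genes with mean CPM within the members' range it was the lowest of 3 for 34.6%. It was also the lowest for 36 of the 60 tested genes on the 6 pathway lists described below (60%) and for 23 of 46 neuropeptide precursors, so low values in that library were common there as well. The sum of the 10 genes was 456, 452 and 372 CPM in no CHX replicates 1 to 3. With CHX it was 546, 490 and 514 CPM. All CHX libraries thus lay above all no CHX libraries, and the mean sum went from 427 ± 47.2 to 517 ± 28.4 CPM (± SD over 3 libraries per group), a ratio of 1.21. The median log2 fold change of the 10 genes was 0.16, against 0.03 for all tested genes. Without no CHX replicate 3 both of these medians were -0.01. Leaving out CHX replicate 2 or 3 raised that of the 10 genes to 0.23 or 0.27, and leaving out any of the other 3 libraries gave 0.14 to 0.18. All values below are followed by that fit where it moves a call or a direction.

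**Figure D1:**
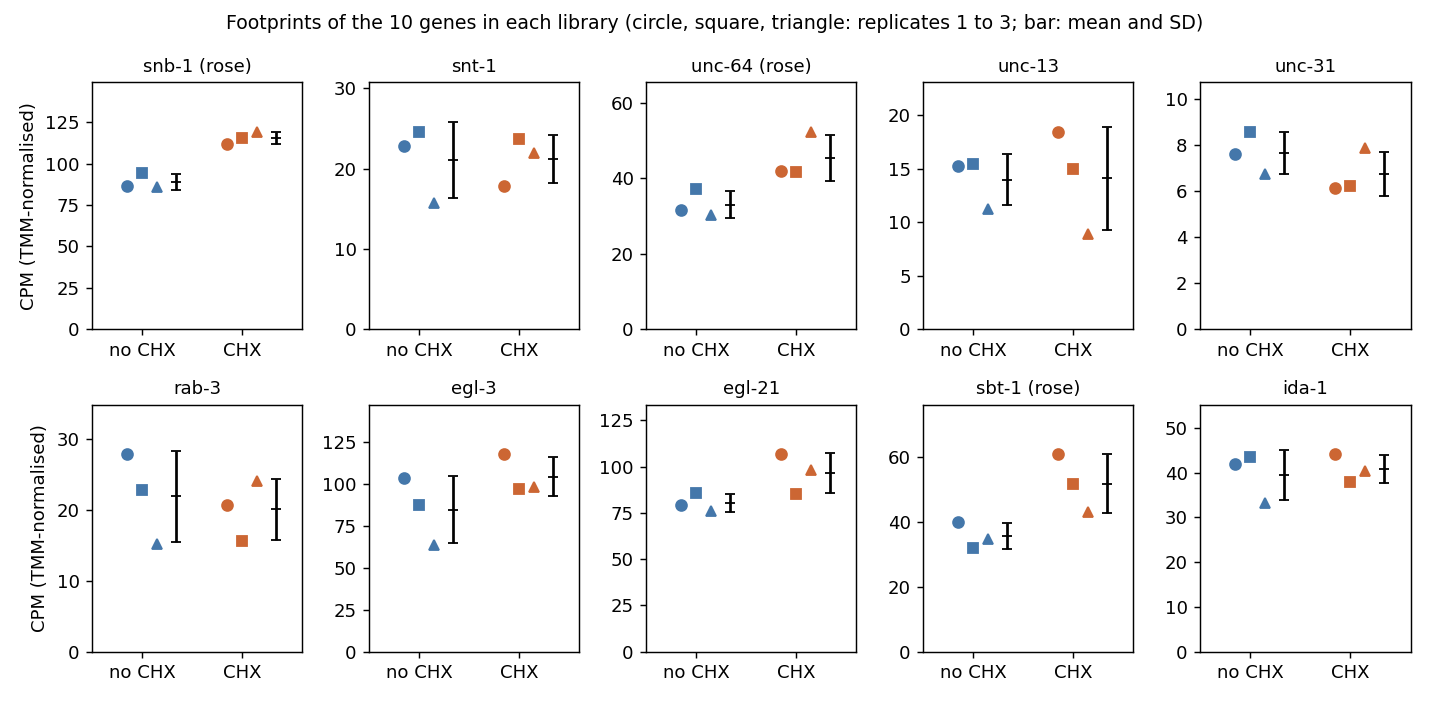
TMM-normalised CPM of each gene in each library, with no CHX in blue and CHX in orange; circles, squares and triangles are replicates 1 to 3 and the bar gives mean and SD. The groups do not overlap for snb-1, unc-64 and sbt-1, and no CHX replicate 3 is the lowest no CHX library in every panel but that of sbt-1.

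SNB-1 is synaptobrevin, the SNARE protein of the vesicle membrane (WBGene00004897, WBcel235 chromosome V, 6655562 to 6656501, minus strand). Its gene had 86.3, 94.3 and 85.9 CPM in no CHX replicates 1 to 3, and 111.8, 115.8 and 119.3 CPM in CHX replicates 1 to 3. Every CHX library was above every no CHX library, a separation in this direction seen for 3 of the 10 members and for 27.7% of all tested genes. The opposite separation was seen for 0 of the 10 and for 24.7% of all tested genes. The mean rose from 88.8 ± 4.76 to 115.6 ± 3.80 CPM (± SD over 3 libraries per group; log2 fold change 0.38, SE 0.115, edgeR adjusted p = 0.0129). The replicates of snb-1 were the tightest among the 10, with a coefficient of variation of 5.36% without CHX and 3.28% with it, below the counting error. The call was lost on leaving out no CHX replicate 1 (0.32, adjusted p = 0.060 with edgeR) or no CHX replicate 3 (0.31, adjusted p = 0.0528 with edgeR).

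UNC-64 is syntaxin, the SNARE protein of the plasma membrane to which synaptobrevin binds (WBGene00006798, chromosome III, 13277261 to 13282491, plus strand). Its gene had 31.7, 37.2 and 30.3 CPM without CHX and 41.9, 41.7 and 52.3 CPM with it. CHX replicate 3 was the highest, and the groups did not overlap. The mean rose from 33.1 ± 3.61 to 45.3 ± 6.08 CPM (± SD over 3 libraries per group; log2 fold change 0.46, SE 0.165, edgeR adjusted p = 0.0333). Of the 6 fits that left out 1 library, the call ended without CHX replicate 3 (0.34), no CHX replicate 1 (0.39) or no CHX replicate 3 (0.35), with edgeR adjusted p = 0.169, 0.113 and 0.123. Within each library, reads of unc-64 stood to those of snb-1 at a ratio of 0.353 to 0.394 without CHX and 0.360 to 0.439 with it. That ratio is not corrected for length, so it serves only to compare libraries, in which the ranges overlapped.

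The genes that make fusion fast and calcium-dependent were not called. SNT-1 is synaptotagmin, the calcium sensor of the vesicle (WBGene00004921, chromosome II, 6810963 to 6816398, plus strand). It had 22.8, 24.6 and 15.7 CPM in no CHX replicates 1 to 3, and 17.9, 23.7 and 21.98 CPM in CHX replicates 1 to 3. The groups overlapped almost fully, with no CHX replicate 3 the lowest of the 6. The log2 fold change was 0.01 (95% interval -0.47 to 0.49, edgeR adjusted p = 0.977), an interval that still contains changes of 1.40-fold up and 0.723-fold down. The sign turned with other scalings (-0.02 with median-of-ratios and with upper-quartile factors) and without no CHX replicate 3 (-0.21).

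Reads of snt-1 relative to those of snb-1, the sensor and the SNARE of the same vesicle, had ratios of 0.265, 0.261 and 0.183 in no CHX replicates 1 to 3. The 95% exact counting intervals were 0.178 to 0.385, 0.182 to 0.366 and 0.118 to 0.275. The ratios were 0.160, 0.204 and 0.184 in CHX replicates 1 to 3, with intervals of 0.107 to 0.233, 0.140 to 0.291 and 0.129 to 0.257. The highest CHX value exceeded the lowest no CHX value, and the intervals overlapped. A difference of this ratio between the groups was not tested. Intervals here cover counting error only.

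UNC-13 primes docked vesicles for fusion by acting on syntaxin (WBGene00006752, chromosome I, 7422785 to 7454088, plus strand). Its gene had 15.2, 15.4 and 11.2 CPM without CHX and 18.4, 14.9 and 8.90 CPM with it. CHX replicate 1 was the highest and CHX replicate 3 the lowest of all 6 libraries, so the spread within the CHX group, 34.2% of its mean, took in the whole no CHX group. The log2 fold change was 0.01 (95% interval -0.60 to 0.62, edgeR adjusted p = 0.986). Its sign turned with other scalings (-0.02 with median-of-ratios and with upper-quartile factors) and without no CHX replicate 3 (-0.17). RefSeq lists 11 transcripts for the gene, and the table has 1 line for it, assigned to transcript ZK524.2d.1, so its isoforms were not told apart.

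UNC-31 is the worm CAPS protein, which is needed for release from dense core vesicles in particular (WBGene00006767, chromosome IV, 12773867 to 12787513, plus strand). It had 7.61, 8.57 and 6.74 CPM in no CHX replicates 1 to 3, from 12, 15 and 12 reads. With CHX it had 6.15, 6.23 and 7.85 CPM, from 11, 10 and 15 reads. CHX replicates 1 and 2 were the lowest of the 6, and CHX replicate 3 was within the no CHX range. With so few reads the log2 fold change of -0.17 had a 95% interval from -0.85 to 0.51 (edgeR adjusted p = 0.709), so changes within that interval were not excluded. Of the tested genes, 6.72% had a lower mean CPM than unc-31.

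RAB-3 is the small GTPase that marks synaptic vesicles and tethers them near release sites (WBGene00004267, chromosome II, 5721791 to 5727651, minus strand). It had 27.9, 22.9 and 15.2 CPM without CHX and 20.7, 15.6 and 24.1 CPM with it. No CHX replicate 1 was the highest and no CHX replicate 3 the lowest of the 6, and all CHX values fell between them. The log2 fold change was -0.11 (95% interval -0.63 to 0.42, edgeR adjusted p = 0.765), -0.36 without no CHX replicate 3 (edgeR adjusted p = 0.250) and 0.06 when no CHX replicate 1 was left out. RefSeq places the protein-coding gene damt-1 over part of rab-3. It had 72 reads in the 6 libraries against 219 for rab-3, and how reads in shared stretches were assigned is not given in the sources used here.

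The 6 release genes together had 192, 203 and 165 CPM in no CHX replicates 1 to 3. With CHX they had 217, 218 and 234 CPM, so all CHX sums were higher. The means were 186 ± 19.4 and 223 ± 9.91 CPM (± SD over 3 libraries per group), and the gains of snb-1 and unc-64 together exceeded that of the 6-gene sum.

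Of the enzymes that process neuropeptide precursors, EGL-3 acts first. It is the worm proprotein convertase PC2, which cuts precursors at pairs of basic residues (WBGene00001172, chromosome V, 10169197 to 10173753, minus strand). Its gene had 103, 87.5 and 63.4 CPM in no CHX replicates 1 to 3, and 118, 97.1 and 98.4 CPM in CHX replicates 1 to 3. No CHX replicate 3 was far below the rest, while no CHX replicate 1 exceeded 2 of the 3 CHX libraries. The log2 fold change was 0.31 (95% interval -0.03 to 0.64, edgeR adjusted p = 0.133). It ran from 0.09 without no CHX replicate 3 (edgeR adjusted p = 0.644) to 0.44 without no CHX replicate 1, where it passed (edgeR adjusted p = 0.0436).

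EGL-21 is the worm carboxypeptidase E, which trims the basic residues that EGL-3 leaves (WBGene00001189, chromosome IV, 10478450 to 10481844, minus strand). It had 79.3, 85.7 and 75.8 CPM without CHX and 106.7, 85.3 and 97.9 CPM with it. CHX replicate 2 lay just below the highest no CHX library, and the other CHX libraries lay above all of them. The mean was 80.3 ± 5.05 CPM without CHX and 96.6 ± 10.8 CPM with it (± SD over 3 libraries per group; log2 fold change 0.27, edgeR adjusted p = 0.0972, unadjusted p = 0.0480). It passed in none of the 14 alternatives, in which the adjusted p ran from 0.0577 to 0.325.

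SBT-1 is the worm 7B2 protein, a chaperone that PC2 needs in order to mature (WBGene00011392, chromosome V, 20827715 to 20828939, minus strand). It had 40.0, 32.0 and 34.8 CPM in no CHX replicates 1 to 3, and 60.9, 51.7 and 42.9 CPM in CHX replicates 1 to 3. The groups did not overlap, although CHX replicate 3 lay only just above no CHX replicate 1. The mean rose from 35.6 ± 4.03 to 51.8 ± 8.99 CPM (± SD over 3 libraries per group; log2 fold change 0.54, SE 0.168, edgeR adjusted p = 0.0148), the largest change among the 10. The call ended without CHX replicate 1 (0.41, edgeR adjusted p = 0.0827) or no CHX replicate 2 (0.42, edgeR adjusted p = 0.105), and remained without no CHX replicate 3 (0.49, edgeR adjusted p = 0.0455). RefSeq places the protein-coding gene grl-14 over part of sbt-1. It had 14 reads in the 6 libraries against 455 for sbt-1.

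The chaperone and its client enzyme were set against each other within libraries. Reads of sbt-1 relative to egl-3 had ratios of 0.387, 0.366 and 0.549 without CHX, in the order of the replicates, and of 0.517, 0.532 and 0.436 with it. The highest ratio was in no CHX replicate 3, the library in which egl-3 was lowest, and the groups overlapped. Reads of egl-21 relative to egl-3, the enzymes of successive steps, ran from 0.767 to 1.19 without CHX and from 0.878 to 0.995 with it. The CHX range lay inside the no CHX range.

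IDA-1 is a tyrosine phosphatase-like protein of the dense core vesicle membrane, related to the mammalian IA-2 autoantigen (WBGene00002048, chromosome III, 5755496 to 5765815, plus strand). It had 41.9, 43.4 and 33.1 CPM in no CHX replicates 1 to 3, and 44.1, 37.98 and 40.3 CPM in CHX replicates 1 to 3. Apart from no CHX replicate 3 the libraries lay close together. The log2 fold change was 0.05 (95% interval -0.29 to 0.39, edgeR adjusted p = 0.824), and -0.10 without no CHX replicate 3. The interval contains changes of up to 1.31-fold. Of 6 markers of vulva and uterus, the organs with the uv1 cells, 2 had enough reads to be tested and 0 were called, also at an unadjusted p under 0.05 or with DESeq2 or limma-voom. Their summed level was 20.2 to 29.2 CPM without CHX and 25.1 to 28.6 CPM with it, so the ranges overlapped.

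**Figure D2:**
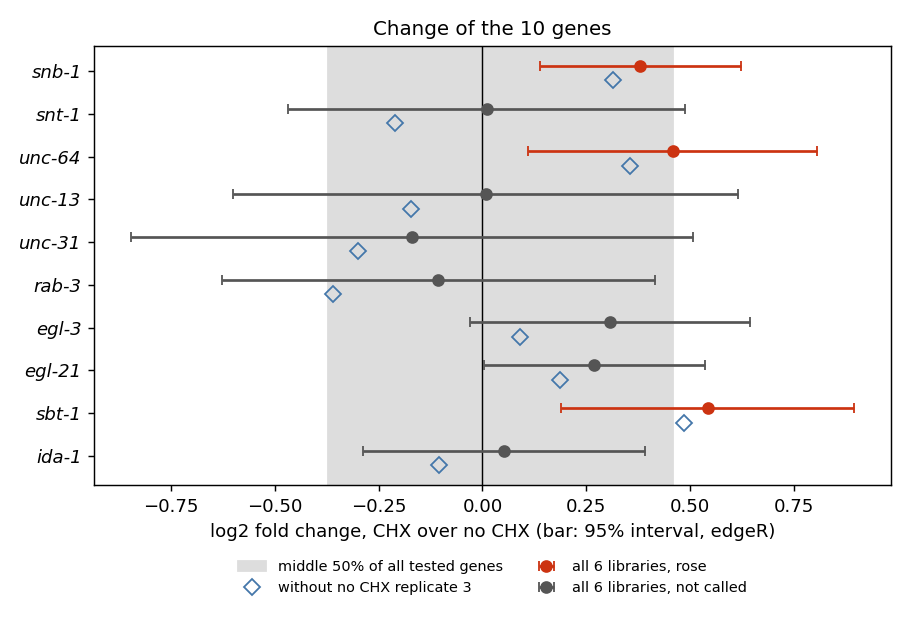
Log2 fold change of CHX over no CHX for each gene, with the 95% interval from edgeR; red marks the 3 genes that rose, grey the 7 not called, and open diamonds the values without no CHX replicate 3. Of the 10 filled points, 9 lie within the grey band, which holds the middle 50% of all tested genes (-0.37 to 0.46). Of the 10 diamonds, 9 lie within it as well, although the band is from the fit with all 6 libraries.

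The 10 genes were spread over 5 chromosomes, with 3 (snb-1, egl-3 and sbt-1) on chromosome V. Their changes were small against those of the whole table: their median absolute log2 fold change was 0.22, against 0.41 for all tested genes. Of all tested genes 61.6% had an absolute change smaller than that of sbt-1, the largest of the 10. The 3 that rose had from 411 to 1068 reads over the 6 libraries, whereas snt-1, rab-3, unc-13 and unc-31 had 219 or fewer, but reads did not separate the called from the others: egl-3, egl-21 and ida-1, which had no call, had 984, 925 and 418 reads.

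Other genes of the same pathways were counted on 6 lists with 81 genes in the table, of which 60 were tested. Of these 14 rose (23.3%) and 1 fell, with a median log2 fold change of 0.22. The gene that fell, bas-1, was also the only 1 of the 60 that was lower at an unadjusted p under 0.05, with edgeR, DESeq2 and limma-voom alike. Falls were few beside the 20.0% of all tested genes, and rises were near the 22.2%. Without no CHX replicate 3, 10 of the 60 rose and 2 fell, beside 19.3% and 20.4% of the 10912 genes tested in that fit. By list, in the order below, the tested genes that rose made up 0%, 44.4%, 25%, 25%, 25% and 30%. The 21 genes that were not tested had too few reads, so the counts describe the better-covered genes.

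The partners of the SNAREs and the scaffold of the release site had no call. Of 20 genes for fusion and the active zone, 13 were tested, and 0 rose and 0 fell with edgeR, DESeq2 and limma-voom. With edgeR 1 was higher at an unadjusted p under 0.05, the synaptotagmin paralog snt-2, which went from 12.8 ± 3.54 to 20.4 ± 5.01 CPM (± SD over 3 libraries per group; log2 fold change 0.67, edgeR adjusted p = 0.0558). It passed without CHX replicate 3 (0.80, edgeR adjusted p = 0.0463) and with no filter on low counts (0.65, edgeR adjusted p = 0.0489). It dropped to 0.42 when no CHX replicate 3 was left out and to 0.46 when CHX replicate 2 was (edgeR adjusted p = 0.242 and 0.240). The median of the list was 0.03, the same as for all tested genes. Without no CHX replicate 3 the active zone gene rimb-1 fell, a gene named after its value was seen.

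Of 12 genes for the RAB-3 and RAB-27 cycle and vesicle transport, 9 were tested, 4 rose and none fell (median 0.38). The largest rises were those of rabx-5, from 29.8 ± 6.80 to 49.1 ± 5.70 CPM, and arl-8, from 62.3 ± 8.03 to 98.9 ± 16.9 CPM (± SD over 3 libraries per group; log2 fold changes 0.72 and 0.66, edgeR adjusted p = 0.0037 and 0.0017). ARL-8 is a small GTPase that moves synaptic vesicle precursors and also lysosomes, and RABX-5 is an exchange factor for RAB-5, the GTPase of early endosomes. The other risers, named to complete the count, were rbg-1 and rbg-2 (0.45 and 0.57), homologs of the subunits of the mammalian RAB3 GTPase-activating complex. Without no CHX replicate 3, 3 of the list rose.

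Of 10 genes for vesicle recycling and vesicle membranes, 8 were tested, 2 rose and none fell (median 0.28). The risers were dyn-1, the dynamin that pinches off vesicles, and unc-57, the endophilin that works with it. The first went from 99.3 ± 7.03 to 129.9 ± 11.9 CPM and the second from 85.0 ± 6.09 to 109.04 ± 7.72 CPM (± SD over 3 libraries per group; log2 fold changes 0.38 and 0.36, edgeR adjusted p = 0.0148 and 0.0228). DESeq2 gave 0 risers on this list, with 1 higher at an unadjusted p under 0.05, and none was left without no CHX replicate 3. The dyn-1 call also ended without no CHX replicate 1 (0.32) or CHX replicate 2 (0.34), and the unc-57 call without no CHX replicate 2 (0.27) or CHX replicate 1 (0.30).

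Of 14 genes for dense core vesicle biogenesis, 12 were tested, 3 rose and none fell (median 0.26). The gene cab-1, whose product binds the RAB-3 exchange factor AEX-3, went from 67.3 ± 3.79 to 119.3 ± 6.93 CPM (± SD over 3 libraries per group; log2 fold change 0.82, edgeR adjusted p = 3.4e-05). The gene vps-54, for a subunit of the GARP tethering complex of the Golgi, went from 18.9 ± 3.21 to 34.6 ± 6.87 CPM (± SD over 3 libraries per group; 0.87, edgeR adjusted p = 0.0029). The third was unc-108 (0.32), which encodes RAB-2 and was named to complete the count.

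The remaining peptide-processing enzymes numbered 8, all tested, of which 2 rose and none fell (median 0.37). The gene cpd-1, for a carboxypeptidase D that belongs to the same enzyme family as EGL-21, rose from 25.8 ± 1.9004 to 43.8 ± 6.25 CPM (± SD over 3 libraries per group; log2 fold change 0.76, edgeR adjusted p = 0.0020). The gene pghm-1, for a monooxygenase that starts the amidation of peptide ends, rose from 23.3 ± 2.13 to 38.8 ± 5.71 CPM (± SD over 3 libraries per group; 0.73, edgeR adjusted p = 0.0041). Both calls remained under all 14 alternatives, DESeq2 included. The dual-function amidating enzyme gene pamn-1 (0.07) and the lyase gene pgal-1 (0.23), which carry the same pathway and were named after their values were seen, were not called.

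Transmitter synthesis and loading genes had the widest range. Of 17 on the list, 10 were tested, 3 rose and 1 fell (median 0.38). The gene tdc-1, for the tyrosine decarboxylase that makes tyramine, had 12.1, 11.4 and 10.1 CPM without CHX and 47.5, 36.7 and 45.5 CPM with it. It rose by 3.87-fold (log2 fold change 1.95, SE 0.206, edgeR adjusted p = 1.1e-06). The next enzyme, tyramine beta-hydroxylase, turns tyramine into octopamine, and its gene tbh-1 had 69.8, 58.3 and 39.3 CPM without CHX and 152, 177 and 182 CPM with it. It rose by 3.07-fold (1.62, SE 0.167, edgeR adjusted p = 3.8e-06).

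Both enzymes of octopamine synthesis were thus several times further from no change than any of the 10 members. Outside neurons, tdc-1 and tbh-1 are known from the sheath cells of the gonad, and oocyte markers rose in the same libraries. Their part in these rises was not tested. The gene that fell was bas-1, for the aromatic amino acid decarboxylase of serotonin and dopamine synthesis. It had 67.9, 60.6 and 49.95 CPM without CHX and 26.3, 23.0 and 26.2 CPM with it (log2 fold change -1.23, SE 0.167, edgeR adjusted p = 1.6e-05), with no overlap between the groups. All 3 of these calls remained under the 14 alternatives. The other riser, ace-2 (1.12), encodes an acetylcholinesterase and was named to complete the count. Without no CHX replicate 3, 2 of the list rose and 1 fell.

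The precursors that EGL-3 and EGL-21 process are encoded by the flp and nlp genes. Of 96 such genes 46 were tested. Of these 10 rose (21.7%, near the 22.2% of all tested genes) and none fell (20.0% of all tested genes did). Their median log2 fold change was 0.36, against 0.03 for all tested genes. For the absence of falls, 0 were lower at an unadjusted p under 0.05 with edgeR, DESeq2 or limma-voom. The largest rises, flp-5 and flp-8 (1.07 and 1.03), rested on mean levels under 10 CPM, and their calls ended under 7 and 6 alternatives. DESeq2 called 2 of the 46 as risen, beside 1654 of all 10632 tested genes, so the nearness to the share of all genes held for edgeR only. Between 5 and 10 rose when single libraries were left out (1889 to 2193 over all genes). The count was 5 in the fit that left out no CHX replicate 2. It was 6 in those that left out no CHX replicate 1, no CHX replicate 3 or CHX replicate 1. The sum of the list was 1431 to 1491 CPM without CHX and 1773 to 1847 CPM with it. Its largest part was a single gene, nlp-77, named after its value was seen. That gene went from 683 ± 39.1 to 844 ± 38.9 CPM (± SD over 3 libraries per group, log2 fold change 0.31, edgeR adjusted p = 0.0105). The sum alone thus does not tell how widely a rise was shared over the list. By gene, 39 of the 46 had a positive log2 fold change, beside 52.3% of all tested genes. For 16 of the 46 all CHX libraries lay above all no CHX libraries, and for 0 all lay below (27.7% and 24.7% of all tested genes).

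**Figure D3:**
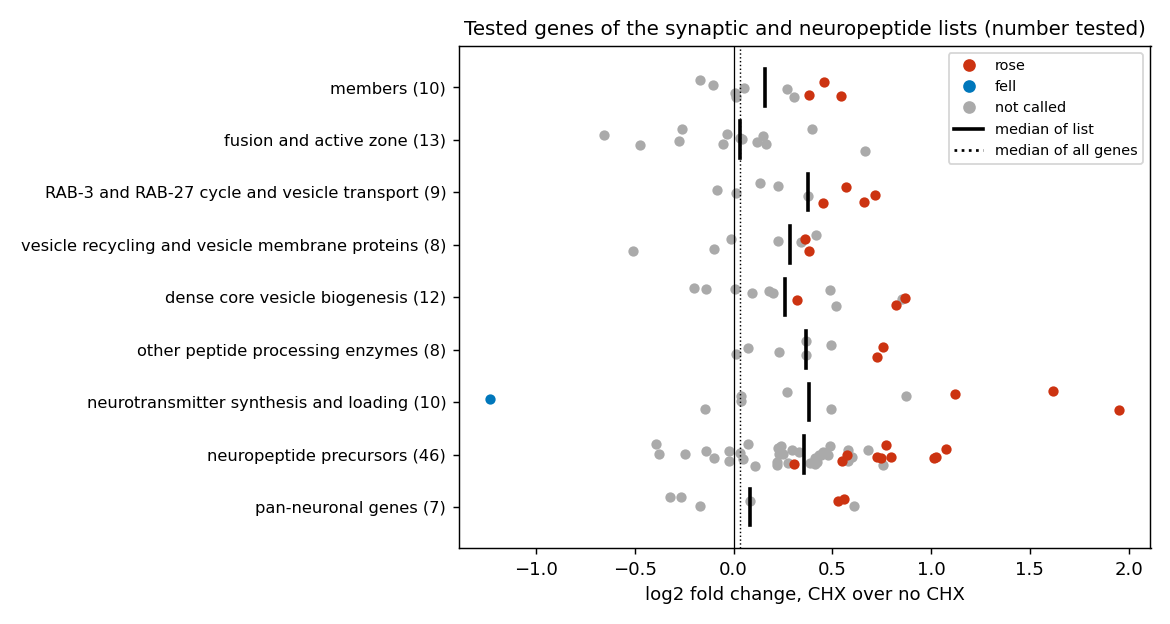
Log2 fold change of CHX over no CHX for each tested gene of the 10 members, the 6 pathway lists, the neuropeptide precursors and the pan-neuronal markers, with the number tested in brackets; red points rose, the blue point fell (bas-1), grey points were not called, black bars are list medians and the dotted line is the median of all tested genes. The members lie between -0.17 and 0.54, and the farthest points on the right, tdc-1 and tbh-1, are on the transmitter list.

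The genes most like the 10 in their course over the 6 libraries were sought among 9074 other tested genes with mean CPM of at least 10. The measure was Pearson's r of log2(CPM + 0.5) with log2 of the members' summed CPM, which ignores the size of a change. The highest values were those of tat-3 (0.993), F13E6.1 (0.987), abts-4 (0.987), apl-1 (0.986) and twk-24 (0.984). Of these, tat-3, abts-4 and twk-24 rose (log2 fold changes 1.03, 0.58 and 0.89), whereas F13E6.1 (0.04) and apl-1 (0.12) were not called. The call of abts-4 ended without no CHX replicate 3 (0.38). An r above 0.9 was reached by 231 genes, and with 6 libraries in 2 groups these values are a description only.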

How the data were processed

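Raw counts of footprint reads over coding sequence, 1 line per gene, were deposited by the authors; that every line is coding sequence on WBcel235 is per the file headers. Per the labels' protocols, ribosomes were pelleted through 34% sucrose, fragments of 26 to 34 nucleotides were gel-purified, and the D-Plex Small RNA-seq kit was used for the libraries. The submitters' processing notes name DESeq2. How reads were aligned, whether strand was used, and how rRNA, molecular identifiers and multiply matching reads were handled is not given in the sources used here. The table's length column includes introns, so levels were not compared between genes per coding length.

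Genes passing filterByExpr (minimum count 10) were normalised by TMM and compared in edgeR 4.0.16 under R 4.3.3 (robust glmQLFit, then glmQLFTest, with group as the only term), with Benjamini-Hochberg adjustment over 10632 genes and a threshold of 0.05. The steps were tested on simulated data. Intervals are 95%. The labels do not state separate cultures for the replicates, so the p-values reflect a spread between libraries that may be technical in part. Chi-square per degree of freedom was 1.89 to 3.35 within groups, so no libraries were duplicates. Alternatives used DESeq2 1.42.0, limma-voom (limma 3.58.1), other scalings and filters, the replicate block, leaving out the 100 most abundant genes, and leaving out each library.

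Members, lists and tests were chosen with earlier results of these data known. On the lists, 2 symbols (rab-27 and opt-2) had no match in the table. The precursors are flp and nlp genes without nlp-24 to nlp-34, which are epidermal peptides. Named genes are the members, rpl-36.A, per list the 2 largest called rises and falls (failing these, the smallest p) and the 5 genes most like the members' sum, with exceptions stated. Overlaps come from RefSeq on WBcel235.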

Additional observations from a re-analysis of the deposited data

How the results depend on the processing

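The counts over all genes stayed within 1.5 times under every alternative run (risers 1889 to 2193 and fallers 1810 to 2221 when single libraries were left out). With DESeq2, 1654 genes rose and 1689 fell. The log2 ratio of the summed members was 0.25 to 0.34 under other scalings, against 0.28. That ratio was run under other scalings only, not with libraries left out. No CHX replicate 3 had the lowest sum of its group (372 CPM, against 456 and 452 CPM), so the ratio of these sums is smaller without it. The CHX sums, 490 to 546 CPM, lay above all of them. Called members, all risers, numbered 0 with DESeq2 and 1 to 3 when single libraries were left out, and none fell under any alternative. On the 6 pathway lists 9 rose with DESeq2 and 10 to 14 when libraries were left out, while 1 to 2 fell, the added ones being rimb-1 without no CHX replicate 3 and unc-41 without CHX replicate 1. Among the named genes, directions turned only for 5 with values near 0 that no alternative called. For snt-1 these were -0.016 (median-of-ratios), -0.023 (upper-quartile), -0.017 (DESeq2), -0.00685 (no filter), -2.6e-04 (without the 100 most abundant genes), with a range of -0.21 to 0.12 when single libraries were left out. For unc-13 they were -0.019 (median-of-ratios), -0.023 (upper-quartile), -0.016 (DESeq2), -0.00978 (no filter), -0.045 (limma-voom), -0.00814 (replicate block) and -0.00254 (without the 100 most abundant genes), with a range of -0.24 to 0.27. The ranges on leaving out a library were -0.36 to 0.058 for rab-3, -0.10 to 0.10 for ida-1 and -0.011 to 0.052 for F13E6.1. The cause was not tested. Same-numbered libraries did not deviate together (correlations -0.10, -0.08 and -0.08), so the numbers do not pair them; with the replicate block 2124 genes rose and 1875 fell, and unc-64 lost its call (0.46, edgeR adjusted p = 0.0589), as did the risen germline marker, while snt-2 passed (0.68, edgeR adjusted p = 0.0476). Levels per coding length were not run. Few reads limit unc-31, unc-13, snt-1 and rab-3, whose 95% intervals are wide. The coefficient of variation also exceeded counting error for unc-13 with CHX (34.2% against 20.3%) and snt-1 without CHX (22.3% against 16.6%). For rab-3 it did so in both groups (29.2% and 21.3% against 16.6%). It did not for unc-31, nor for unc-13 without CHX or snt-1 with CHX.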
